A study of Mus musculus with 9 samples.

Results

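The ADAM and ADAMTS proteases were examined in 9 samples of SCCVII, a mouse tumour line from a squamous cell carcinoma of the mouth that arose spontaneously in CH3 mice. Members were taken as genes with a probe set annotated to a single gene and a symbol of Adam or Adamts followed by a number and at most a letter, which gave 43 of the 18194 genes tested, 28 ADAM and 15 ADAMTS genes. Each was read by its brightest probe set, by the mean over all arrays and so without regard to group. The IR samples were lines from tumours that SCCVII cells had formed in stroma irradiated before injection, the NIR samples were lines from tumours formed in stroma without irradiation, and the PA samples were the parental SCCVII cells kept in standard culture, with 3 arrays each. The labels call the IR tumours highly hypoxic and the IR lines invasive and metastatic, also after expansion in normoxic culture, and the NIR lines poorly so. All groups descend from PA cells. Whether a group's arrays stand for different tumours or for repeats of a line or culture is not stated, so the p-values measure the spread between these samples, which may be technical.

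ADAMs are membrane-anchored metalloproteases that shed the outer part of growth factors, cytokines, adhesion molecules and receptors such as Notch. ADAMTS proteases are secreted and cut matrix proteins, among them the proteoglycans aggrecan and versican, procollagens, von Willebrand factor and proteins of the microfibrils. Several ADAMs lack a complete zinc site and serve as binding partners instead, and many are confined to testis and sperm. In tumours of squamous epithelium the sheddases are known for releasing ligands of the EGF receptor.

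The values were RMA expression values on the log2 scale, and array medians lay between 4.44 and 4.52. The median probe set, at 4.48, divided the members into 22 at or above it and 21 below it, against 11858 of all 18194 genes at or above it. A level near or below the median is close to background and may hold no transcript. On either side of it lay Adam1a at 4.55 and Adam21 at 4.43. Brightness also depends on the probes, so it does not order different genes by transcript number. Of 14 epithelial markers 9 were at or above the median, a share similar to that of all genes (11858 of 18194). The brightest were Krt8 at 12.72 and Krt18 at 11.58. Krt5 (4.93) and Krt6a (5.13) were nearer the median, whereas Krt14 (3.87), Krt17 (3.56), Trp63 (4.26) and Cdh1 (3.29) were below it. Of 11 fibroblast markers 8 were at or above it, again a share near that of all genes. The brightest were Vim at 13.45, Col3a1 at 11.48 and Col1a2 at 11.38, whereas Thy1 (3.73), Fap (3.51) and Postn (4.33) were below it. The SD of the log2 differences between arrays of a group ran from 0.137 to 0.199 in IR, where IR3 was the farthest, from 0.179 to 0.217 in NIR and from 0.148 to 0.188 in PA. Array IR3 had the highest mean of 10 macrophage markers.

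The promoters of 3 members are shown, those of the gene with the brightest probe set, of the single gene that passed a test between groups and of the ADAMTS gene with the dimmest probe set. Each runs from 250 bases before to 50 bases after the gene's start in RefSeq (GRCm38.p6), 5′ to 3′ on the gene's strand, with every CG dinucleotide in capitals. Adam10 lies at chr9:70678732-70679031 on the plus strand, Adam8 at chr7:139992513-139992812 on the minus strand and Adamts20 at chr15:94404301-94404600 on the minus strand.
Adam10: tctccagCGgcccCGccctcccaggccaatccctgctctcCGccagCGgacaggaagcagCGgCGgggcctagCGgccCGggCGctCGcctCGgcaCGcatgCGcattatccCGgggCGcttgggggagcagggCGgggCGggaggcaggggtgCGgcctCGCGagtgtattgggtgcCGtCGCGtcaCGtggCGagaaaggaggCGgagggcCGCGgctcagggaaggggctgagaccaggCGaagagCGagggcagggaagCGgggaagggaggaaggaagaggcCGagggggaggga
Adam8: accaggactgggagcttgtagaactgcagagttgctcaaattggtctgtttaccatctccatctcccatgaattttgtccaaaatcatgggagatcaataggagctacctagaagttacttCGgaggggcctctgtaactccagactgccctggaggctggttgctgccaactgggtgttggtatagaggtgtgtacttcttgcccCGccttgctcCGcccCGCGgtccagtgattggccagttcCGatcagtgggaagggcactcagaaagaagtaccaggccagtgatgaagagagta
Adamts20: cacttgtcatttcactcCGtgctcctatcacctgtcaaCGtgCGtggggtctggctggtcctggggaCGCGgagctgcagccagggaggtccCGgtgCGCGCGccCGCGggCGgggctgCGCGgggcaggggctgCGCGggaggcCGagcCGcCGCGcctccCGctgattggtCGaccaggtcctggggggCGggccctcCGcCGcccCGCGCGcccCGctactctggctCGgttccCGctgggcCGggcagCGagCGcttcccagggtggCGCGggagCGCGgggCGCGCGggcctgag
The Adam10 promoter held 32 CG dinucleotides, that of Adam8 held 6 and that of Adamts20 held 41. Promoters were matched for 20 of the 43 members, taking the one with the most CG dinucleotides where a gene had several. The median was 18 CG dinucleotides in 11 members at or above the median probe set and 7 in 9 members below it, beside 22 in 9587 and 8 in 4862 of all genes split in the same way. The ranges of both member groups overlapped widely, at 0 to 32 and 0 to 41, and Adamts3, with 41, had a mean signal of 3.43.

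**Figure D1:**
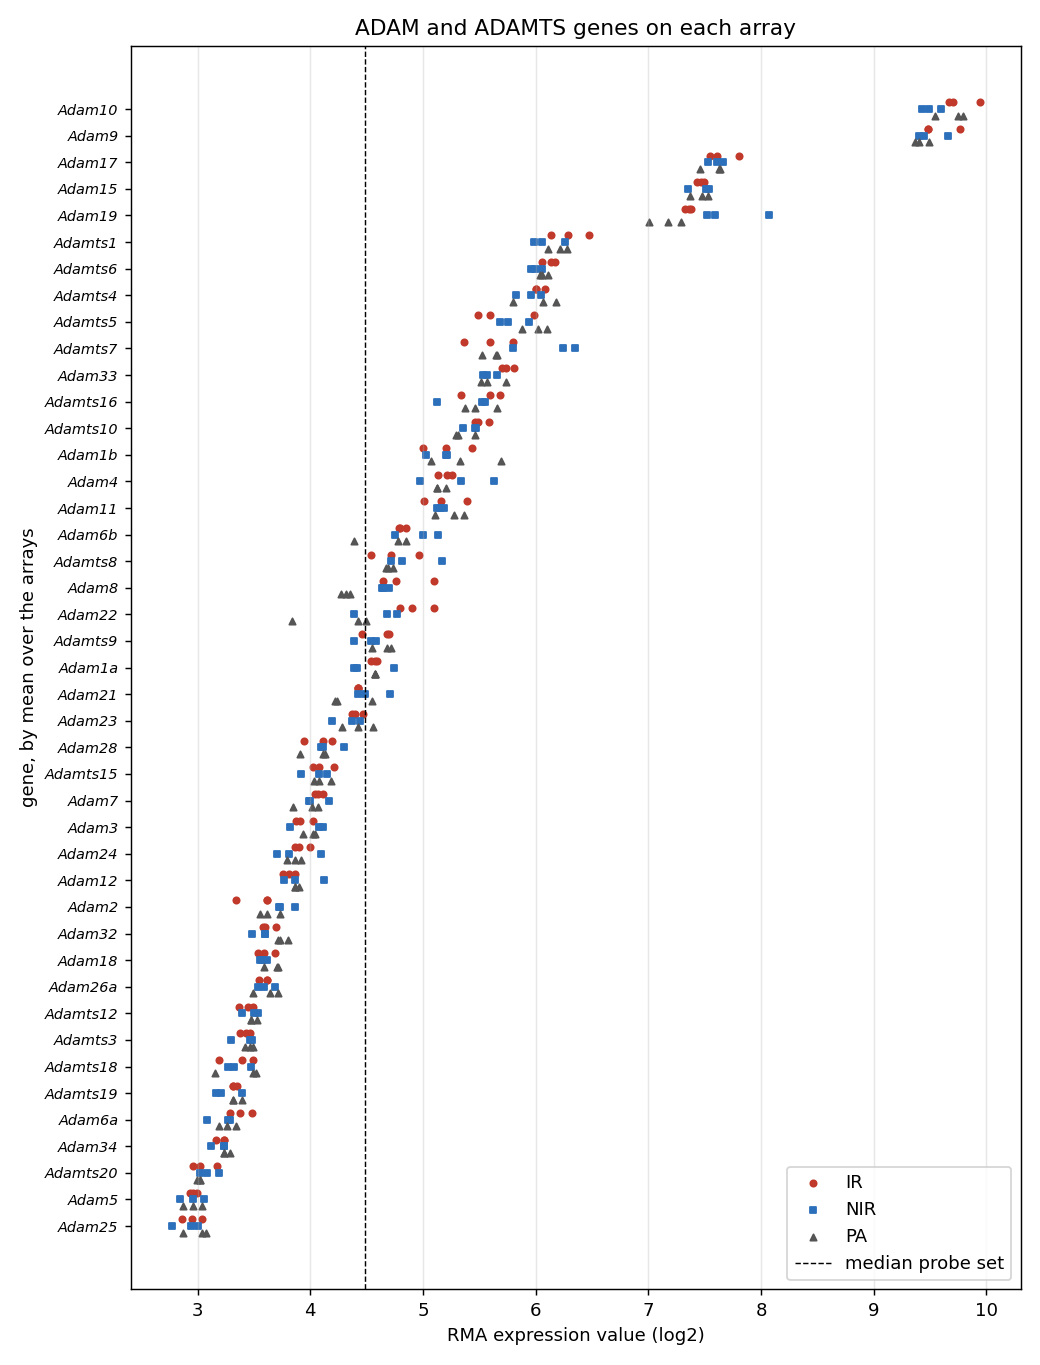
RMA expression value (log2, horizontal axis) of the 43 ADAM and ADAMTS genes on each of the 9 arrays, one point per array, with genes ordered by their mean. Red circles are IR, blue squares NIR and grey triangles PA. The dashed line is the median probe set at 4.48, and 21 genes have their mean below it.

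Among the sheddase ADAMs with a zinc site, 7 of 9 were at or above the median. Adam10, which makes the first membrane-side cut of Notch and also sheds cadherins, had the brightest probe set of the family. It read 9.67, 9.70 and 9.94 in IR, 9.49, 9.43 and 9.60 in NIR, and 9.75, 9.79 and 9.54 in PA. All IR values lay above all NIR values, and the PA values spread over both groups. The difference of 0.27 between IR and NIR did not pass (95% interval 0.06 to 0.47, limma adjusted p = 0.191). Of the other Adam10 probe sets, those with mean signals of 7.79 and 7.46 gave 0.23 and 0.24, a dim one at 4.55 gave -0.12, and none passed. For IR minus PA these 3 gave -0.08, -0.13 and -0.08, where the brightest gave 0.08. For NIR minus PA they gave -0.31, -0.37 and 0.03, where the brightest gave -0.19. None of these differences passed either.

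Adam9, a broadly expressed sheddase, read 9.48, 9.48 and 9.77 in IR, 9.44, 9.66 and 9.40 in NIR, and 9.40, 9.36 and 9.49 in PA. Adam17, the enzyme that releases TNF-alpha and most EGF receptor ligands, read 7.61, 7.55 and 7.80 in IR, 7.66, 7.61 and 7.53 in NIR, and 7.62, 7.63 and 7.46 in PA. The groups overlapped for both genes, and the differences between IR and NIR were 0.08 for Adam9 (95% interval -0.14 to 0.29) and 0.05 for Adam17 (-0.14 to 0.24). Adam15, another membrane-anchored protease, stayed between 7.35 and 7.54 on all 9 arrays, and its interval for IR minus NIR ran from -0.17 to 0.16. The 95% intervals of these 3 genes thus reached at most 1.22-fold higher in IR than in NIR.

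Adam19, a sheddase of neuregulins also called meltrin beta (Entrez Gene 11492), read 7.38, 7.36 and 7.32 in IR, 8.07, 7.59 and 7.52 in NIR, and 7.29, 7.00 and 7.17 in PA. No group overlapped another, with NIR highest and PA lowest. Its log2 difference was 0.57 for NIR minus PA (SE 0.129, limma adjusted p = 0.0609) and -0.37 for IR minus NIR (limma adjusted p = 0.176), and neither passed. Without NIR3 the NIR minus PA difference was 0.68 and passed (limma adjusted p = 0.0417), as it did at 0.40 with the mean of both Adam19 probe sets (limma adjusted p = 0.0498). NIR3 was the lowest NIR array for Adam19, so leaving it out widens the difference. The other Adam19 probe set, at a mean signal of 4.70, gave 0.23 for NIR minus PA and did not pass.

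Adam8, a sheddase best known from leukocytes and macrophages, was higher in IR than in PA and was the single member called in any comparison. Adam8 (Entrez Gene 11501) read 4.65, 4.76 and 5.10 in IR, 4.65, 4.70 and 4.64 in NIR, and 4.36, 4.27 and 4.32 in PA. All 6 arrays of the tumour-derived lines lay above the median probe set and all PA arrays below it, so the PA level is near background and the size of the change is uncertain. The log2 difference of IR minus PA was 0.52, or 1.44-fold (SE 0.102, 95% interval 0.30 to 0.74, limma adjusted p = 0.033). NIR minus PA was 0.35 (limma adjusted p = 0.163) and IR minus NIR 0.17 (limma adjusted p = 0.45), and neither passed.

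Adam8 was highest in IR3, the array with the highest mean of the macrophage markers. In bulk RNA, a change in the number of cells of a type and in their RNA content cannot be told apart. Of the 10 macrophage markers 7 were at or above the median probe set, a share near that of all genes (11858 of 18194). Among them were Csf1r at 5.65 and Cd68 at 4.90, and Ptprc, Adgre1 and Itgam were below it. Of 5 measured lymphocyte markers 4 were at or above it, and of 6 muscle markers 3. This position alone thus does not show that a cell type was present. The mean of the macrophage list was 5.02, 5.06 and 5.50 in IR, 5.12, 5.12 and 5.01 in NIR, and 4.84, 4.85 and 4.93 in PA. The IR3 values standing farthest above those of IR1 and IR2 were those of Lyz2 (8.25, with 5.71 in IR1 and 5.78 in IR2), Cd68 (5.83, with 4.81 and 4.71) and Tyrobp (5.39, with 4.85 and 4.72), whereas Csf1r (5.53), Fcer1g (5.77), Adgre1 (3.87) and Laptm5 (5.06) were below the higher of IR1 and IR2. Without IR3 the Adam8 difference between IR and PA was 0.39 and passed (limma adjusted p = 0.0336). That between NIR and PA was 0.35 and passed too (limma adjusted p = 0.0247). The difference between IR and NIR was then 0.04 and did not pass (limma adjusted p = 0.872). Leaving out IR3 does not test the part of the macrophage markers. Their list mean was also higher on every other IR and NIR array than on any PA array, and their part was not tested. The call of IR against PA was lost without IR2 (limma adjusted p = 0.0853), NIR3 (0.0556), PA1 (0.122), PA2 (0.17) or PA3 (0.127), with median centring (0.0519) and with the NIR arrays left out of the fit (0.0943).

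Adam33, linked to asthma in human genetics, read 5.70 to 5.80 in IR, 5.54 to 5.65 in NIR and 5.51 to 5.73 in PA. Its IR values lay above the NIR values, by 0.16 on average, and the difference did not pass (limma adjusted p = 0.332). Adam12, or meltrin alpha, had a mean of 3.87, and Adam28 one of 4.10. Both were below the median, and the highest single array was 4.13 for Adam12 and 4.30 for Adam28.

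Of 7 ADAMs listed here for the lack of a complete zinc site, 2 were at or above the median, the neuronal proteins Adam11 and Adam22. The ADAMs counted below as testis genes were not sorted by this site, so the 7 are not all that lack it. Adam22, a receptor of the secreted protein LGI1 at synapses (Entrez Gene 11496), read 5.10, 4.80 and 4.90 in IR, 4.68, 4.77 and 4.39 in NIR, and 4.49, 4.43 and 3.84 in PA. Its IR values lay above all others, and PA3 was the lowest array. The PA mean of 4.25 was below the median probe set and so near background, and the mean over all arrays lay above it through IR and NIR. The difference of IR minus PA was 0.68 and did not pass (SE 0.162, 95% interval 0.33 to 1.03, limma adjusted p = 0.0932). It passed with array weights at 0.59 (limma adjusted p = 0.0412), and a second probe set, at a mean signal of 4.27, gave 0.06. Adam11 stayed between 5.01 and 5.39 and overlapped in all comparisons. Adam23, another neuronal member that binds LGI1, averaged 4.39, and Adam7, an epididymal one, averaged 4.03, both below the median.

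Of 12 ADAMs grouped as testis genes, Adam1b, Adam4, Adam6b and Adam1a were at or above the median, with means of 5.24, 5.22, 4.82 and 4.55, and 8 were below it. Adam1a and Adam1b encode forms of the sperm protein fertilin alpha. None passed, and the differences of these 12 genes ran from -0.15 to 0.17 in IR minus NIR. Another 4 probe sets annotated to both Adam1a and Mapkapk5, and 1 annotated to both Adam6a and Adam6b, were not used.

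Among the ADAMTS proteases of aggrecan and versican, 5 of 7 were at or above the median. Adamts1, which also restrains blood vessel growth, read 6.47, 6.29 and 6.13 in IR, 6.26, 6.05 and 5.98 in NIR, and 6.21, 6.28 and 6.11 in PA. Adamts4, an aggrecanase, stayed between 5.80 and 6.18 on all arrays. Adamts5, the main aggrecanase of mouse cartilage, read 5.60, 5.49 and 5.98 in IR, 5.68, 5.94 and 5.75 in NIR, and 5.88, 6.02 and 6.10 in PA. Its difference of IR minus PA was -0.31 (limma adjusted p = 0.467), but an equally bright probe set of the gene gave -0.03, and for IR minus NIR the pair gave -0.10 and 0.34 with none passing. Adamts8 averaged 4.78 and Adamts9 4.59, both near the median, while Adamts15 at 4.08 and Adamts20 at 3.05 were below it.

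Adamts7, a protease of the cartilage protein COMP (Entrez Gene 108153), read 5.36, 5.59 and 5.80 in IR, 6.24, 6.35 and 5.80 in NIR, and 5.66, 5.53 and 5.65 in PA. NIR1 and NIR2 stood above every other array, and NIR3 lay at the level of IR3. The log2 difference was -0.54 for IR minus NIR (SE 0.14, 95% interval -0.85 to -0.24, limma adjusted p = 0.0777) and 0.52 for NIR minus PA (limma adjusted p = 0.121), and neither passed. Both passed without NIR3, at -0.71 (limma adjusted p = 0.0259) and 0.68 (limma adjusted p = 0.0212). NIR3 was the lowest NIR array for Adamts7, so leaving it out widens both differences, and no other alternative setting gave a call.

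Of the remaining ADAMTS genes, Adamts6 and Adamts10, which act on fibrillin microfibrils, averaged 6.06 and 5.43, and Adamts16 averaged 5.48. Their differences in IR minus NIR were 0.12, 0.08 and 0.14, and none passed. A second Adamts10 probe set, at a mean signal of 5.05, gave -0.36 for NIR minus PA where the first gave 0.08, and neither passed. Adamts12, Adamts18 and Adamts19 averaged 3.47, 3.37 and 3.31, and Adamts3, the one procollagen N-proteinase measured here, averaged 3.43, all below the median.

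**Figure D2:**
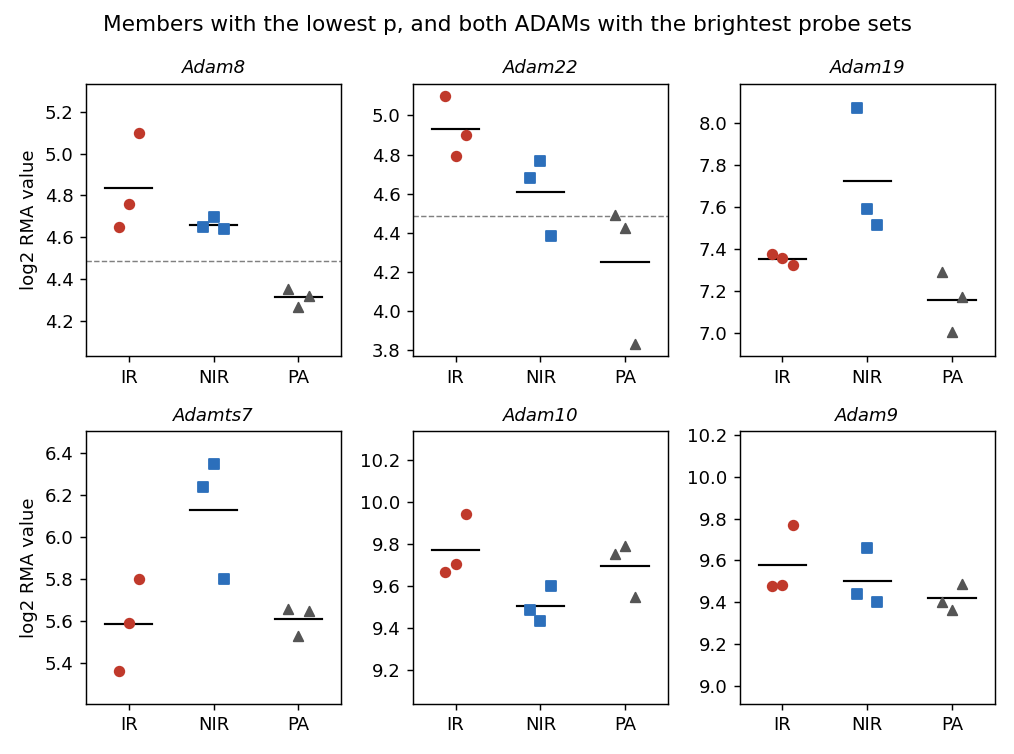
RMA expression value (log2) on each array, points, with the group mean as a bar, for Adam8, Adam22, Adam19, Adamts7, Adam10 and Adam9, and the median probe set as a dashed line where it falls in the panel. Vertical axes differ between panels and do not start at 0. Adam8 lies above the median on all IR and NIR arrays and below it on all PA arrays, and Adam19 separates all 3 groups.

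In IR against NIR, the comparison that asks what set cells from irradiated stroma apart, limma called 0 of the 43 members at an adjusted p below 0.05, where 1.65% of all genes were called. At an unadjusted p below 0.05 there were 4 members, against 15.9% of all genes. These were Adam10, which was higher in IR, and Adam19, Adamts7 and Adam2, which were lower, Adam2 at a mean of 3.64 and so below the median. The groups did not overlap for 5 members, against 18.1% of all genes. The median difference of the members was 0.03, and of all genes 0.00, with a median size of 0.08 in members and 0.09 in all genes. The members' differences ran from -0.54 to 0.32.

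In IR against PA, 1 of 43 members was called, Adam8, where 1.06% of all genes were called, and 3 had an unadjusted p below 0.05 (Adam8, Adam22 and Adamts5) against 8.59% of all genes. The groups did not overlap for 4 members, against 14.7% of all genes. The median difference was 0.01 in members and 0.00 in all genes.

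In NIR against PA, limma called 0 of 43 members, where 1.3% of all genes were called. At an unadjusted p below 0.05 there were 6, against 12.1% of all genes, with Adam19, Adamts7, Adam8, Adam22 and Adam6b higher in NIR and Adam32 lower. The groups did not overlap for 4, against 15.5% of all genes. All 3 comparisons thus gave counts of members near or under the share of all genes. Both comparisons with PA share its arrays, so the values of Adam8 and Adam22 in them are not independent.

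**Figure D3:**
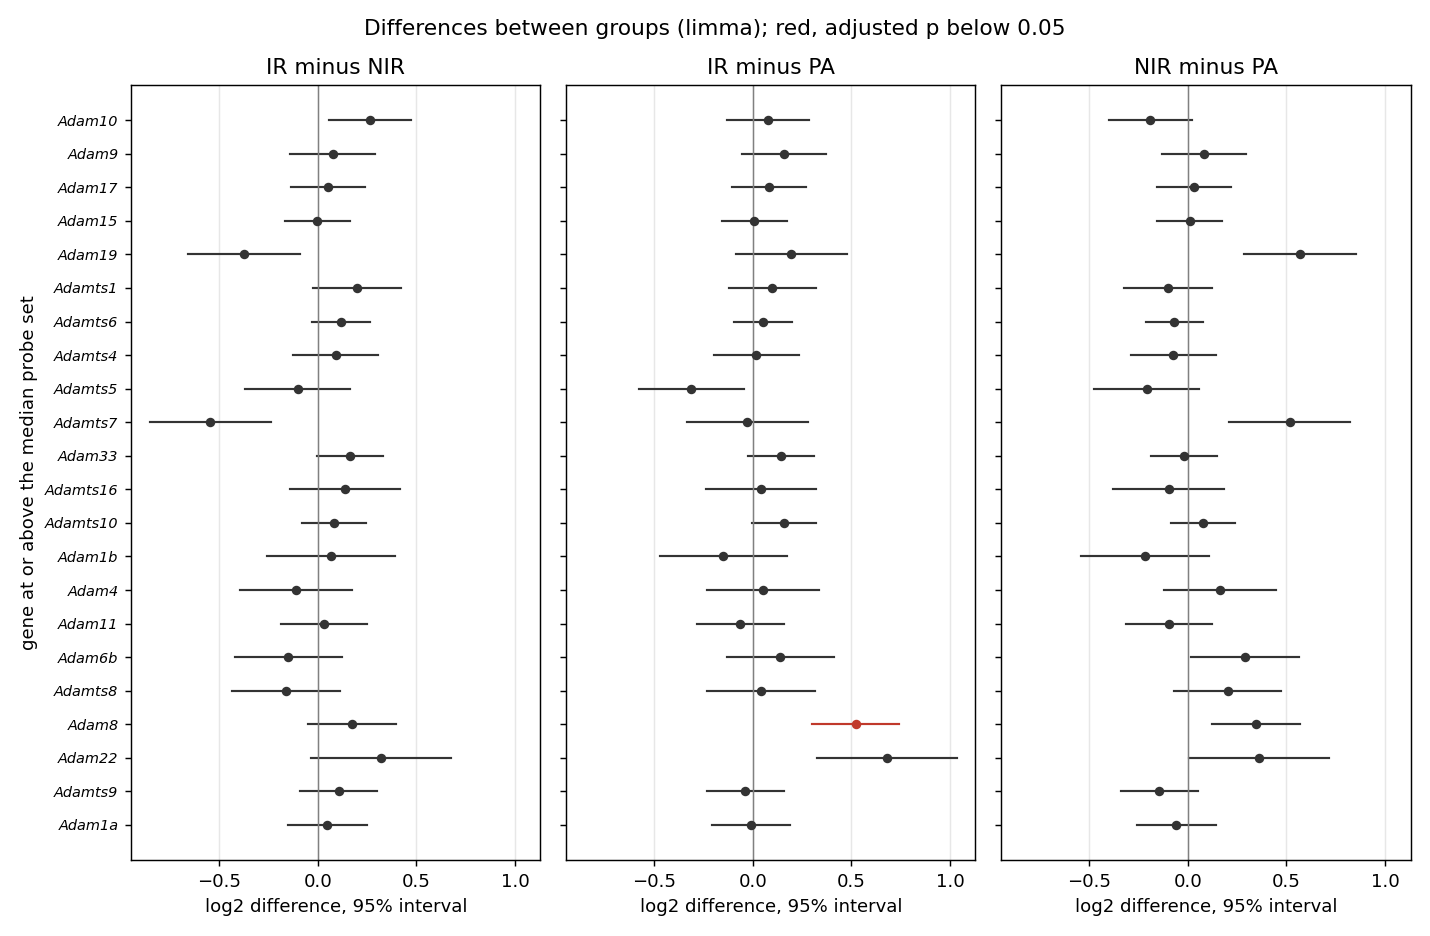
Log2 differences between groups (points) with 95% intervals from limma (lines) for the 22 members at or above the median probe set, in IR minus NIR, IR minus PA and NIR minus PA. Adam8 in IR minus PA, at 0.52, is the one called difference and is drawn in red.

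Genes that act with these proteases were taken from lists drawn up with earlier results of these data known. Of 20 genes of ADAM maturation, trafficking and inhibition, 1 was higher and 3 lower in IR than in NIR, with 16 not passing, where 1.65% of all genes were called. The list median was -0.04 and that of all genes 0.00, and since the list was drawn up with results known its count is no independent evidence. The calls included 3 tetraspanins that escort ADAM10 to the cell surface. Tspan17 read 8.18, 8.15 and 8.50 in IR and 7.59, 7.57 and 7.33 in NIR, with PA at 7.81, 8.07 and 7.97. Its IR level was 1.72-fold that of NIR (log2 difference 0.78, SE 0.112, limma adjusted p = 0.00902), and the call held whichever single array was left out. A second probe set passed at 0.55 (limma adjusted p = 0.0193).

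Tspan5 read 6.54, 6.40 and 6.70 in IR, 7.25, 7.19 and 7.04 in NIR, and 6.56, 6.78 and 6.59 in PA. IR was lower than NIR (-0.61, limma adjusted p = 0.0143), and NIR was higher than PA (0.52, limma adjusted p = 0.0221). Tspan14 read 7.39, 7.24 and 7.48 in IR, 7.78, 7.97 and 7.78 in NIR, and 7.61, 7.61 and 7.51 in PA, and was also lower in IR than in NIR (-0.47, limma adjusted p = 0.0223). The IR and NIR values did not overlap for any of these 3 genes. The other tetraspanins of this kind, Tspan10, Tspan15 and Tspan33, did not pass. The Tspan5 call of IR against NIR was lost without IR1 (limma adjusted p = 0.0561) or IR2 (0.0507), and that of NIR against PA without NIR1, NIR2, PA1 or PA3 (up to 0.122, without PA1). Its second probe set gave -0.35 for IR minus NIR and 0.17 for NIR minus PA and did not pass, and neither call held with both probe sets averaged (limma adjusted p = 0.0671 and 0.249). The Tspan14 call was lost without IR1, IR2 or NIR2 (highest limma adjusted p = 0.0761, without IR2).

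Sh3pxd2a encodes the scaffold TKS5, which binds ADAM12, ADAM15 and ADAM19 and is needed for invadopodia. It read 8.19, 8.15 and 8.03 in IR, 8.58, 8.46 and 8.52 in NIR, and 7.91, 7.75 and 7.83 in PA. No group overlapped another, in the same order as for Adam19. NIR was higher than PA (0.69, SE 0.0737, limma adjusted p = 0.0004), which held whichever single array was left out, while IR was lower than NIR (-0.40, limma adjusted p = 0.0268). The call of IR against NIR was lost when IR1, IR2, IR3, NIR1, NIR3 or PA1 was left out (limma adjusted p up to 0.0803, without IR3). A second probe set, at a mean signal of 5.52, gave 0.00 for IR minus NIR and -0.01 for NIR minus PA.

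No inhibitor of the list passed. The mean and SD of Timp1 over 3 arrays were 8.98 ± 0.07 in IR, 9.08 ± 0.14 in NIR and 8.91 ± 0.09 in PA. Those of Timp2 were 11.90 ± 0.06 in IR, 11.88 ± 0.21 in NIR and 12.18 ± 0.06 in PA. Timp3, the inhibitor with the broadest action on ADAM17 and the aggrecanases, averaged 3.70 in IR, 3.77 in NIR and 3.73 in PA, below the median in all groups. The proprotein convertase gene Furin and the iRhom genes Rhbdf1 and Rhbdf2, whose products mature and carry ADAM17, averaged 6.65, 9.06 and 7.18 and did not pass in any comparison. In IR against PA none of the 20 genes was called by limma, where 1.06% of all genes were called. Sh3pxd2a (0.29, limma adjusted p = 0.122) and Pcsk7 (-0.26, limma adjusted p = 0.24) had the lowest p. In NIR against PA the 2 higher genes were Sh3pxd2a and Tspan5, where 1.3% of all genes were called in either direction.

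Of 8 measured EGF family ligands that ADAMs shed, 1 was lower in IR in both comparisons of IR, and limma called 0 between NIR and PA, where 1.65% (IR against NIR), 1.06% (IR against PA) and 1.3% (NIR against PA) of all genes were called. This was Ereg, which encodes epiregulin, at 8.21, 8.28 and 8.24 in IR, 8.81, 8.84 and 8.56 in NIR, and 8.68, 8.73 and 8.56 in PA. All IR values lay below all others. The differences were -0.49 against NIR (limma adjusted p = 0.0214) and -0.41 against PA (limma adjusted p = 0.0486). The call against NIR was lost when an IR array, NIR1 or NIR2 was left out (highest limma adjusted p = 0.0755, without IR1) and that against PA when any array other than NIR2 or NIR3 was (up to 0.239, without PA2). Hbegf, which encodes heparin-binding EGF, averaged 7.22 in IR, 7.15 in NIR and 6.54 in PA and passed in no comparison (limma adjusted p = 0.17 for IR minus PA and 0.181 for NIR minus PA). The neuregulin gene Nrg1 differed by 0.13 between NIR and PA (limma adjusted p = 0.485).

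Of 31 other ADAM substrates none was called by limma in any comparison. Of all genes, 1.65% were called in IR against NIR, 1.06% in IR against PA and 1.3% in NIR against PA. With so few substrates, a count of none is near those shares. The lowest p in IR against NIR were those of the syndecan gene Sdc1 (-0.39, limma adjusted p = 0.0638) and the prion protein gene Prnp (0.34, limma adjusted p = 0.0825). In NIR against PA they were those of Prnp (-0.41, limma adjusted p = 0.0544) and the hepatocyte growth factor receptor gene Met (0.30, limma adjusted p = 0.0684), and in IR against PA those of Met (0.16, limma adjusted p = 0.558) and Efna5 (0.24, limma adjusted p = 0.58).

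Of 21 measured ADAMTS substrates 2 were lower in IR than in NIR and 0 higher, where 1.65% of all genes were called in either direction, with a list median of 0.04. Vcan encodes versican, a large matrix proteoglycan cut by ADAMTS1, ADAMTS4, ADAMTS5 and ADAMTS9, and it read 8.44, 8.50 and 8.40 in IR, 9.31, 9.16 and 9.00 in NIR, and 8.81, 8.87 and 8.84 in PA. No group overlapped another, with IR lowest and NIR highest. Vcan was 1.63-fold lower in IR than in NIR (log2 difference -0.71, SE 0.0822, limma adjusted p = 0.0039), a call that held whichever single array was left out. Its 2 other bright probe sets gave -0.55 and -0.86 and passed (limma adjusted p = 0.00882 and 0.00265). Against PA the difference was -0.39 (limma adjusted p = 0.0486), which was lost when any array other than NIR1 or NIR3 was left out (limma adjusted p up to 0.22, without PA2). In the fit over every probe set it did not pass (limma adjusted p = 0.0677). There the 2 other bright probe sets gave -0.24 and -0.44 against PA and did not pass (limma adjusted p = 0.344 and 0.0688).

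The other gene lower in IR than in NIR was Ltbp1, which encodes a microfibril protein that stores latent TGF-beta. It read 7.57, 7.61 and 7.76 in IR, 8.05, 7.92 and 7.96 in NIR, and 7.40, 7.42 and 7.43 in PA, with no overlap between groups. Its difference was -0.33 for IR minus NIR (limma adjusted p = 0.0496), lost when any array other than IR3 was left out (limma adjusted p up to 0.138, without IR1). This call was also lost with median centring (limma adjusted p = 0.0687), quantile normalization (0.0504), trend and robust settings (0.0542) and without probe sets that bind several transcripts (0.0507). It was 0.56 for NIR minus PA (limma adjusted p = 0.00192), a call kept whichever single array was left out. Dcn, which encodes the small proteoglycan decorin, read 8.90, 8.88 and 9.38 in IR, 8.93, 8.61 and 8.33 in NIR, and 7.78, 7.66 and 8.01 in PA. All PA values lay below all others, and IR and NIR overlapped. It was higher in both derived groups than in PA, by 1.24 in IR (limma adjusted p = 0.00265) and by 0.81 in NIR (limma adjusted p = 0.0391). The NIR call was lost when any array other than IR3 or NIR3 was left out (limma adjusted p up to 0.178, without PA2). Dcn was also one of the 11 fibroblast markers, whose mean ran from 7.68 to 7.79 in IR, 7.55 to 7.89 in NIR and 7.37 to 7.51 in PA. That mean includes Dcn itself, so it is no separate measure beside Dcn. The part of the fibroblast markers in these results was not tested.

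Of 16 ADAMTS-like proteins, cofactors and secretion factors none was called by limma in any comparison. The shares of all genes called were 1.65% in IR against NIR, 1.06% in IR against PA and 1.3% in NIR against PA. A count of none in so short a list is near those shares. The lowest p in IR against NIR were those of Pcolce, the enhancer of procollagen C-proteinase (0.37, limma adjusted p = 0.0957), and the glucosyltransferase gene B3glct (-0.20, limma adjusted p = 0.231). Pcolce averaged 12.06 in IR, 11.69 in NIR and 12.06 in PA. In IR against PA they were those of the procollagen C-proteinase gene Bmp1 (0.32, limma adjusted p = 0.208) and Adamtsl3 (0.24, limma adjusted p = 0.558), and in NIR against PA those of Pcolce (-0.37, limma adjusted p = 0.134) and Bmp1 (0.23, limma adjusted p = 0.357).

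All calls of IR against NIR named here were lost in a fit of the IR and NIR arrays alone, where limma called 11 genes in place of 300. In that fit the limma adjusted p was 0.0559 for Vcan and 0.0625 for Tspan17. The mean over all probe sets of a gene, which adds dim ones, moved Sh3pxd2a to -0.20 in IR minus NIR, Ltbp1 to -0.14 in IR minus NIR and 0.18 in NIR minus PA, Vcan to -0.14 in IR minus PA and Dcn to 0.37 in NIR minus PA, and none of these passed.

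**Figure D4:**
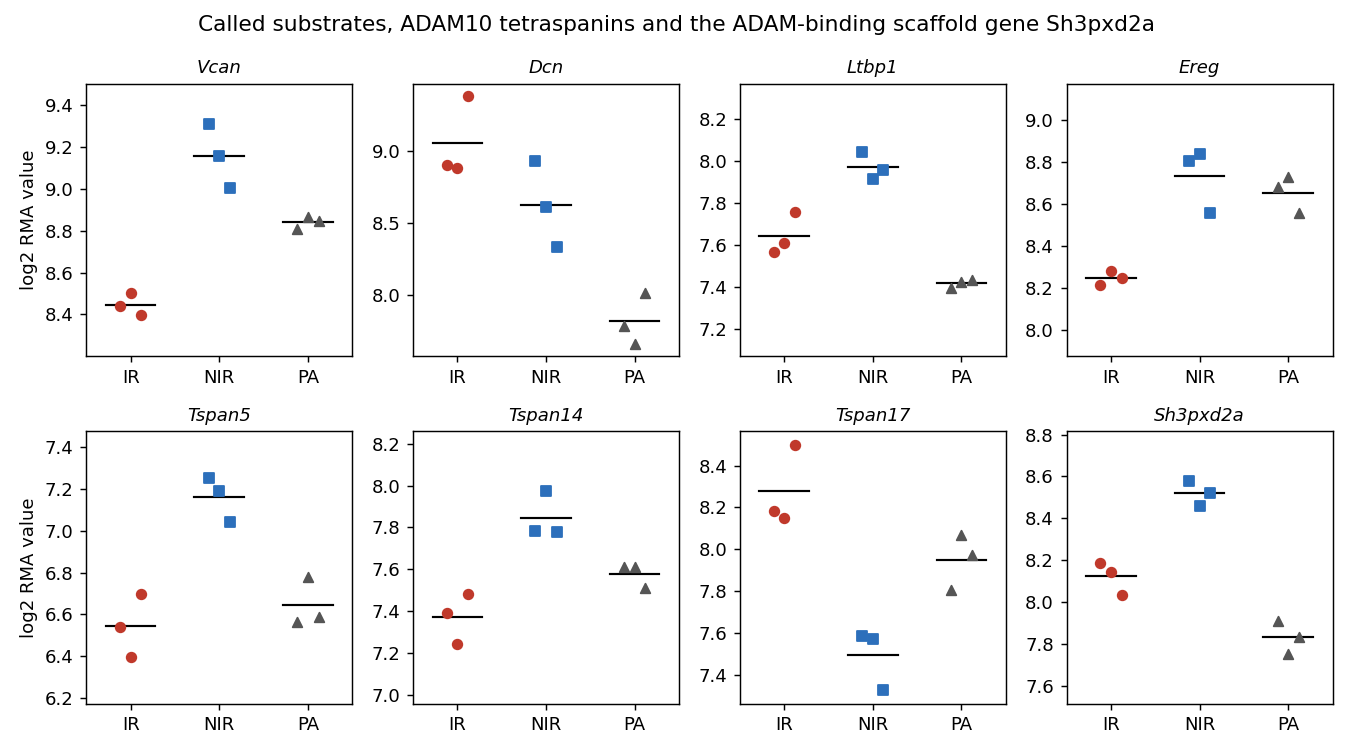
RMA expression value (log2) on each array, points, with the group mean as a bar, for the substrate genes Vcan, Dcn, Ltbp1 and Ereg, the ADAM10-binding tetraspanin genes Tspan5, Tspan14 and Tspan17, and Sh3pxd2a. Vertical axes differ between panels and do not start at 0. Vcan is lowest and Tspan17 highest in IR, and NIR is highest for Vcan, Ltbp1, Tspan5, Tspan14 and Sh3pxd2a.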

How the data were processed

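RNA of 9 samples was measured on Affymetrix mouse arrays, 3 per group. The deposited values are log2 expression values made by the authors with RMA, per the submitters' processing notes, with settings not given in the sources used here. They ran from 2.47 to 14.01 and were not scaled again. Of 45100 probe sets, 64 were controls and 34944 were annotated to a single gene. Symbols came from the platform annotation, updated through Entrez Gene numbers in a RefSeq table, which matched all 43 members. Among the probe sets of a gene the brightest on average was tested, giving 18194 genes. The number of arrays, rather than a read depth, limits the precision.

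Groups were compared in a single fit of all 9 arrays by the functions lmFit and eBayes of limma 3.58.1 (R 4.3.3), 2-sided and without covariates, with 6 residual and 5.48 prior degrees of freedom, with Benjamini-Hochberg adjustment over all genes and a threshold of 0.05. Other probe sets were tested in a fit over every probe set. On simulated data with the real means and spreads, 47 of 67 genes simulated with a log2 change of 0.5 and 65 of 67 with one of 1 were called in IR against NIR, with 10 of 188 calls false. The corresponding numbers were 52 and 64 in IR against PA and 53 and 65 in NIR against PA. The simulated noise was normal, independent between genes and of equal size on all arrays. The real arrays had estimated weights from 0.44 (NIR2) to 2.46 (PA1), so the simulation does not cover differences in array quality.

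Members, lists and tests were chosen with earlier results of these data known. Named were all members at or above the median probe set or called, the brightest others, and of each related list up to 5 called genes a comparison or otherwise the 2 with the lowest p; further members complete short counts. Alternatives were median centring, quantile normalization, a filter on dim genes, the mean of probe sets, leaving out probe sets that bind several transcripts, trend and robust settings, array weights, fits of the compared groups alone, a block for the replicate number, other probe sets, and leaving out each array. Those for the related genes were added after seeing the data. The plots were made in Python 3.11.15 (matplotlib 3.10.9).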

Additional observations from a re-analysis of the deposited data

How the results depend on the processing

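The count of called members, 0 in IR against NIR, 1 in IR against PA and 0 in NIR against PA by limma, moved by single genes near the threshold. In IR against PA it was 0 with median centring, 0 with the compared groups alone and 2 with array weights, which added Adam22. In NIR against PA it was 1 with all probe sets of a gene averaged, 1 with trend and robust settings (Adam19 in both) and 1 with the compared groups alone (Adam8). Leaving out a single array gave 0 to 1 called members in IR against NIR, 0 to 1 in IR against PA and 0 to 2 in NIR against PA, the highest of these without NIR3. Of 1254 recomputed differences of 22 named members, 1236 kept their side of the threshold, 10 gained a call, 8 lost that of Adam8, and none that was called changed sign. Only Adam8 in IR against PA was called in the main fit. All other differences could only stay uncalled or gain a call, so the count of 1236 does not measure stability. The 8 losses all fell on that call of Adam8. The numbers of all genes called in IR against NIR, IR against PA and NIR against PA were 300, 192 and 236, and with array weights 390, 467 and 382. In fits of the compared groups alone they were 11, 196 and 217, and leaving out an array gave 77 to 271, 99 to 214 and 121 to 370. With median centring 176 of all 18194 genes were called in IR against PA. In NIR against PA 222 were called with probe sets averaged and 277 with trend and robust settings.

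Correlations between the deviations of same-numbered arrays of different groups ran from -0.20 to 0.10. With 3 arrays a group and no other pairs set beside them, these values cannot tell whether the numbers pair the samples. With the replicate number as a block, 0 members were called in IR against NIR, 1 in IR against PA, which was Adam22 (0.68, limma adjusted p = 0.0401), and 1 in NIR against PA, which was Adam19 (0.57, limma adjusted p = 0.039). Of all 18194 genes, this fit called 230, 164 and 203 in the same order. Under the block Adam8 had a limma adjusted p of 0.0579 in IR against PA. Of the related genes, the block ended the calls of Ereg (limma adjusted p = 0.0536) and Vcan (0.0834) in IR against PA, Ltbp1 (0.0794) in IR against NIR, and Dcn (0.0626) and Tspan5 (0.0593) in NIR against PA. The IR against PA calls of Ereg and Vcan were also lost with quantile normalization (0.0583 and 0.0808) and without probe sets that bind several transcripts (0.0548 and 0.296), and that of Ereg with median centring (0.0571). The causes of these changes were not tested.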
